A study of Mus musculus with 11 samples.

Results

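Pancreatic islet cells carry enzymes that neurons use to make monoamines and GABA, and 10 genes for the synthesis, vesicular loading and breakdown of these transmitters were followed across sorted mouse islet cells. They were the rows of the deposited count table with the symbols Tph1, Tph2, Ddc, Th, Slc18a1, Slc18a2, Gad1, Gad2, Maoa and Maob, 10 of 55401 genes, and each symbol matched a row. RNA-seq was performed on 11 libraries of polyadenylated RNA from islets of 4 mice. There were 3 libraries of non-beta cells, 4 labelled NNAT-positive beta cells and 4 labelled NNAT-negative beta cells. None of the 11 libraries held the non-beta fraction of mouse 4. The mice were chow-fed C57BL6/J males labelled as 10 weeks old, although the text of the study gives a younger age. All fractions came from animals with the same alleles, namely a RIP-Cre driver, a STOP-tdTomato reporter and Nnat-EGFP. In these animals Cre from the rat insulin promoter switches on tdTomato in beta cells, and EGFP comes from a transgene under Nnat control, separate from the endogenous imprinted gene for neuronatin.

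Serotonin is made from tryptophan by tryptophan hydroxylase (Tph1 outside the brain, Tph2 in serotonergic neurons) and then by aromatic L-amino acid decarboxylase (Ddc). Tyrosine hydroxylase (Th) makes L-DOPA, which the same decarboxylase turns into dopamine. The vesicular monoamine transporters VMAT1 (Slc18a1) and VMAT2 (Slc18a2) load amines into granules, and the mitochondrial monoamine oxidases A (Maoa) and B (Maob) break them down. GABA is made from glutamate by the glutamate decarboxylases GAD67 (Gad1) and GAD65 (Gad2). Rodent beta cells are known for GABA content, and islet serotonin synthesis is known to rise in pregnancy.

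The libraries held 30420352 to 43238376 counts (median 37757450), so that 3 counts, the upper limit that a count of 0 allows, corresponded to 0.0694 to 0.0986 CPM (counts scaled to library size) in a library. Such limits cover counting error only and leave out the spread between mice. Folds given below as a lower bound pool the reads of each fraction and take the non-beta count as exact. Ins1 and Ins2 together took 17.8 to 34.4% of all counts in the beta cell libraries and 0.970 to 2.34% in the non-beta libraries. The labels were checked against Nnat itself. Nnat measured 50.5, 46.4, 46.0 and 101 CPM in NNAT-positive libraries of mice 1 to 4, as labelled, 74.8, 80.8, 66.5 and 153 CPM in their NNAT-negative counterparts, and 12.8, 29.8 and 17.4 CPM in non-beta libraries of mice 1 to 3. All 4 mice thus had less Nnat in the fraction labelled NNAT-positive, and the fitted level there fell by 0.62 on the log2 scale (SE 0.17, edgeR quasi-likelihood test, unadjusted p = 0.00484, adjusted p = 0.444), and a sample listing of the study heads the beta cell fractions the other way round. The beta cell fractions are therefore called by their labels throughout, and any direction between them would turn if the labels were exchanged. All 8 beta cell markers examined were higher in each beta cell fraction than in non-beta cells, and all 6 alpha, 4 delta and 2 PP cell markers were lower. The non-beta libraries also held other cells of the preparation, with summed levels of 11189 to 41887 CPM for 5 acinar markers, 949 to 1006 CPM for 3 endothelial markers and 1855 to 4164 CPM for 3 stellate and fibroblast markers.

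For 8 of the 10 genes a promoter window from RefSeq (GRCm38.p6, 250 bases before to 50 after the transcription start) was at hand, with 10 windows in all. Slc18a1 and Maob had no entry. The windows of Th and Slc18a2 are shown because both hold the palindromic cAMP response element TGACGTCA, which 1.79% of 32851 RefSeq windows of this length hold, although Th was higher in beta cells and Slc18a2 had nearly all of its reads in non-beta cells. The element, in capitals, begins 45 bases before the start of Th (chr7:142899946-142900245, minus strand) and 4 bases before the start of Slc18a2 (chr19:59260628-59260927, plus strand); a match of letters is a description and not a binding site.
Th: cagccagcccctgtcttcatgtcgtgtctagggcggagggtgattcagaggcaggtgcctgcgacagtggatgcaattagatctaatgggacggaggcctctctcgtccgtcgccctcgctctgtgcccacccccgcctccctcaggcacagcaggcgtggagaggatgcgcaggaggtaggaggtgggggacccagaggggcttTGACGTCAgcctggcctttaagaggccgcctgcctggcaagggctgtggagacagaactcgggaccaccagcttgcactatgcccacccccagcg
Slc18a2: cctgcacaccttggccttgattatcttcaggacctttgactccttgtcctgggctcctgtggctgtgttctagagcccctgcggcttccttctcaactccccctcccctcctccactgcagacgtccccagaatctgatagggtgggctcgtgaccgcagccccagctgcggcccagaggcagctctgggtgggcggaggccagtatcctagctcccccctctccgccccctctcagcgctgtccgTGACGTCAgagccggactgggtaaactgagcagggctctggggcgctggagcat
The windows of Gad1 (chr2:70561879-70562178, plus strand) and Gad2 (chr2:22622077-22622376, plus strand) are shown because these genes encode isoenzymes that stood far apart in level. CG dinucleotides are in capitals. The Gad1 window holds 21 and the Gad2 window 14, against a median of 7 over all windows.
Gad1: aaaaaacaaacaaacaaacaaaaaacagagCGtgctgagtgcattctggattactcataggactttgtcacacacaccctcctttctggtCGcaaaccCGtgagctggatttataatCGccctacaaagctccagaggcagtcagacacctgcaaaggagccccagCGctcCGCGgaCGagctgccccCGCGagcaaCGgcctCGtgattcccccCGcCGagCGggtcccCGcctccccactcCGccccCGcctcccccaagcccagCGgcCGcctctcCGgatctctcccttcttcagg
Gad2: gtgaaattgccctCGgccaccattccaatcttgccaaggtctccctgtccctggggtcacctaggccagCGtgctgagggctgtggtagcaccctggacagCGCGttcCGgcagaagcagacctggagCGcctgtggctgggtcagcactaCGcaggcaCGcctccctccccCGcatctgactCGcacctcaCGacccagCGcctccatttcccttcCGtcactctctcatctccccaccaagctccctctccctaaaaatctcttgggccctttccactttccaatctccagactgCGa
TATAAA was present on either strand in windows of Ddc, Gad1 and Tph2 and in 13.6% of all windows, and the short motif CANNTG was present in 7 of the 10 windows and in 72.3% of all.

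Across the fractions, Gad1, Th, Slc18a1, Ddc and Maob were higher in beta cells than in non-beta cells. Slc18a2 gave nearly all of its few reads in non-beta cells. Tph1 had 31 counts in the 3 non-beta libraries and 7 in the 8 beta cell libraries. Levels are given as CPM on library sizes normalised by the trimmed mean of M values, and the threshold for a call was 0.01 for p-values adjusted by Benjamini and Hochberg over the 17424 genes that passed a filter on low counts. Of the 10 genes, 8 passed this filter and Tph1 and Gad2 did not. In the libraries labelled NNAT-positive against non-beta cells 5 of the 8 were called higher and 0 lower, where 15.8% of all tested genes were called higher and 19.1% lower. The same 5 genes were called higher in the libraries labelled NNAT-negative, where 15.6% of all tested genes were called higher and 21.3% lower. The median log2 fold change of the 8 genes was 1.66 and 1.68, beside -0.06 and -0.13 over all genes tested. Both comparisons share the non-beta libraries and are not independent of each other. In sorted bulk samples, fewer cells of a type and less RNA per cell cannot be told apart.

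**Figure D1:**
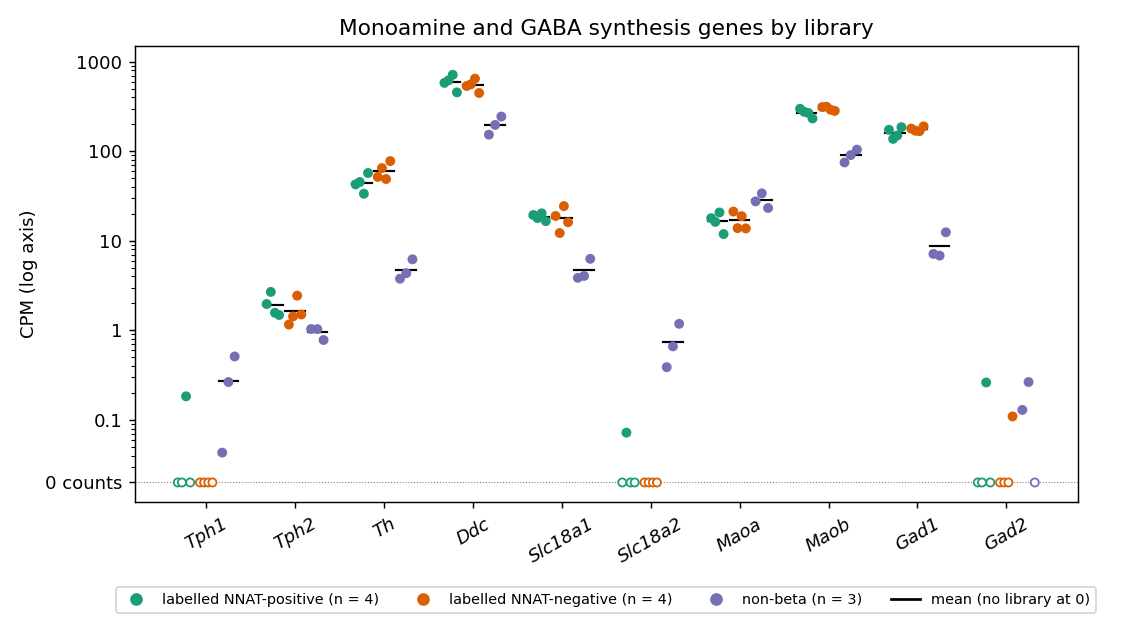
Level of each of the 10 genes in each library, in CPM on a log axis, with open circles on the dotted line for libraries with 0 counts and bars for the mean where no library is at 0. Ddc and Maob have the highest CPM in all 11 libraries, Gad1 and Th lie lower in every non-beta library than in any beta cell library, and Tph1, Slc18a2 and Gad2 lie at or near 0 in beta cells.

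Among the hydroxylases that commit amino acids to a monoamine, Th (ENSMUSG00000000214.11, GRCm38 chr7:142892752-142931128) was the abundant transcript. Th was at 42.6, 45.3, 33.6 and 57.2 CPM in libraries labelled NNAT-positive of mice 1 to 4, at 51.7, 64.9, 49.0 and 77.6 CPM in those labelled NNAT-negative, and at 3.77, 4.34 and 6.21 CPM in non-beta cells of mice 1 to 3. No beta cell library overlapped the non-beta libraries. Th rose 8.48-fold (log2 3.08, SE 0.20, adjusted p = 1.0e-06, edgeR) in the fraction labelled NNAT-positive and 11.5-fold (log2 3.52, SE 0.20, adjusted p = 4.2e-07, edgeR) in that labelled NNAT-negative. Per exon length, the Th level in beta cells exceeded that of 88.7 and 92.3% of tested genes in the respective fractions, against 39.3% in non-beta cells.

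Tph2 (ENSMUSG00000006764.8, chr10:115078641-115185022) was measured on 29 to 112 reads a library. It stood at 1.97, 2.69, 1.57 and 1.48 CPM in libraries labelled NNAT-positive, 1.16, 1.43, 2.44 and 1.503 CPM in those labelled NNAT-negative, and 1.03, 1.03 and 0.779 CPM in non-beta cells. Every beta cell library was above every non-beta library, but the log2 differences of 1.07 (SE 0.55, adjusted p = 0.142, edgeR) and 0.85 (SE 0.56, adjusted p = 0.245, edgeR) did not pass the test, and their 95% intervals ran from -0.16 to 2.30 and from -0.41 to 2.10. Tph1 (ENSMUSG00000040046.14, chr7:46644641-46672537) had 2, 10 and 19 counts in the non-beta libraries, 7 counts in a single library labelled NNAT-positive (mouse 3) and 0 in the other 7 beta cell libraries. Over the pooled reads of each fraction, Tph1 was 5.81-fold higher in non-beta cells than in the fraction labelled NNAT-positive (95% interval 2.51 to 15.6, exact binomial, counting error only) and at least 11.5-fold higher than in the fraction labelled NNAT-negative, with the latter set at a floor of 3 counts over the group. Without the filter on low counts, Tph1 was called in none of the comparisons (edgeR, adjusted p from 0.156 to 1).

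Ddc (ENSMUSG00000020182.16, chr11:11814101-11898144), the decarboxylase shared by the serotonin and dopamine routes, had the highest level per exon length of the 10 genes in every fraction. It was at 580, 620, 714 and 455 CPM in libraries labelled NNAT-positive, 536, 559, 647 and 448 CPM in those labelled NNAT-negative, and 153, 197 and 244 CPM in non-beta cells. The beta cell and non-beta libraries did not overlap. Ddc rose by 1.69 on the log2 scale (SE 0.11, adjusted p = 9.0e-07, edgeR) in the fraction labelled NNAT-positive and by 1.58 (SE 0.11, adjusted p = 1.2e-06, edgeR) in that labelled NNAT-negative. The ratio of Ddc to Th per exon length was 22.1 ± 1.67 (SD, n = 3) in non-beta cells, 7.49 ± 2.90 (SD, n = 4) in the fraction labelled NNAT-positive and 5.03 ± 1.66 (SD, n = 4) in that labelled NNAT-negative. It was lower in each beta cell library, 3.06 to 11.3, than in any non-beta library, 20.8 to 24.0.

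Of the vesicular transporters, Slc18a1 was higher in beta cells, whereas reads of Slc18a2 came nearly all from non-beta cells. Slc18a1 (ENSMUSG00000036330.12, chr8:69037711-69089235) was at 19.4, 17.9, 20.3 and 16.6 CPM in libraries labelled NNAT-positive, 18.9, 12.2, 24.4 and 16.1 CPM in those labelled NNAT-negative, and 3.86, 4.05 and 6.29 CPM in non-beta cells, again without overlap. It rose 4.14-fold (log2 2.05, SE 0.19, adjusted p = 1.4e-05, edgeR) and 3.89-fold (log2 1.96, SE 0.19, adjusted p = 1.8e-05, edgeR). Slc18a2 (ENSMUSG00000025094.8, chr19:59260896-59296012) had 18, 25 and 44 counts in the non-beta libraries (0.388, 0.662 and 1.18 CPM), 3 counts in a single library labelled NNAT-positive (mouse 2) and 0 counts in the other 7 beta cell libraries. Its pooled level in non-beta cells was 38.1-fold that in the fraction labelled NNAT-positive (95% interval 12.6 to 188, exact binomial) and at least 32.2-fold that in the fraction labelled NNAT-negative, with 3 counts over the group as the floor. In the fit across genes neither difference was called (edgeR, adjusted p = 0.0628 and 0.0263). Slc18a1 thereby made up 99.6 to 100% of the vesicular transporter transcripts per exon length in beta cells and 83.7 to 90.6% in non-beta cells.

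Slc18a2 and Tph1 are genes that mast cells, among other cells, are known to use, and the levels of 5 mast cell markers were therefore read beside them. Cpa3, Ms4a2, Fcer1a, Tpsb2 and Mcpt4 were at 0 counts in all 8 beta cell libraries, and their summed level in non-beta cells of mice 1 to 3 was 22.0, 12.9 and 1.40 CPM. In the same libraries Slc18a2 was at 0.388, 0.662 and 1.18 CPM and Tph1 at 0.0431, 0.265 and 0.511 CPM, each on few reads. The part of mast cells, delta cells, endothelial cells and the other cells of the fraction in the Slc18a2 and Tph1 reads was not tested. Slc18a2 shares 111 exonic bases with the opposite-strand gene Gm29261, which had 0 counts in every library.

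Of the monoamine oxidases, Maob was called higher in beta cells and Maoa was not called. Maob (ENSMUSG00000040147.14, chrX:16709282-16817366) was at 298, 276, 268 and 232 CPM in libraries labelled NNAT-positive, 312, 314, 291 and 282 CPM in those labelled NNAT-negative, and 74.97, 90.6 and 104 CPM in non-beta cells. It rose 3.08-fold (log2 1.62, SE 0.12, adjusted p = 3.1e-06, edgeR) and 3.45-fold (log2 1.79, SE 0.12, adjusted p = 1.5e-06, edgeR), with no overlap between beta and non-beta libraries. Maoa (ENSMUSG00000025037.6, chrX:16619698-16687818), its neighbour on the X chromosome on the opposite strand, was at 17.9, 16.3, 20.7 and 11.9 CPM in libraries labelled NNAT-positive, 21.2, 13.9, 18.8 and 13.7 CPM in those labelled NNAT-negative, and 27.5, 33.9 and 23.2 CPM in non-beta cells. Its level was below that of non-beta cells in every beta cell library, yet the log2 differences of -0.66 (SE 0.19, adjusted p = 0.0165, edgeR) and -0.64 (SE 0.19, adjusted p = 0.0205, edgeR) did not pass the threshold of 0.01. The call depended on the method, since DESeq2 gave adjusted p = 0.000283 and 0.000879, with ranges over all alternatives of 0.000283 to 0.0562 and 0.000879 to 0.123. Without mouse 2 the differences shrank to -0.44 and -0.34. Per exon length, Maob exceeded Maoa by a factor of 24.7 ± 4.07 (SD, n = 4) in the fraction labelled NNAT-positive, 27.4 ± 5.80 (SD, n = 4) in that labelled NNAT-negative and 4.92 ± 1.54 (SD, n = 3) in non-beta cells. These ratios, which do not depend on the scaling of the libraries, were 19.3 to 33.9 in beta cells and 4.00 to 6.71 in non-beta cells.

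**Figure D2:**
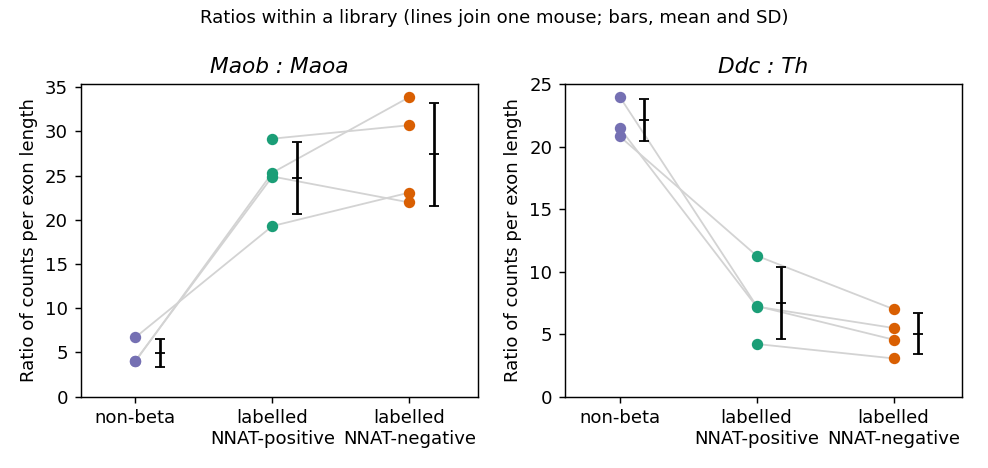
Ratio of counts per exon length of Maob to Maoa and of Ddc to Th in each library on linear axes, with grey lines joining the fractions of a mouse and bars for the mean and SD. The Maob to Maoa ratio lies at 4.00 to 6.71 in non-beta cells and at 19.3 to 33.9 in beta cells, and the Ddc to Th ratio falls from 20.8 to 24.0 in non-beta cells to 3.06 to 11.3 in beta cells.

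Of the glutamate decarboxylases, nearly all transcripts came from Gad1 (ENSMUSG00000070880.10, chr2:70553072-70602014). Gad1 was at 174, 137, 150 and 186 CPM in libraries labelled NNAT-positive, 179, 169, 167 and 190 CPM in those labelled NNAT-negative, and 7.13, 6.83 and 12.4 CPM in non-beta cells. It rose 18.0-fold (log2 4.17, SE 0.19, adjusted p = 1.6e-07, edgeR) in the fraction labelled NNAT-positive and 19.7-fold (log2 4.30, SE 0.19, adjusted p = 1.1e-07, edgeR) in that labelled NNAT-negative, the largest of the fitted rises among the 8 genes. Gad2 (ENSMUSG00000026787.3, chr2:22622205-22693874), the isoenzyme anchored to synaptic vesicles in neurons, had 10 counts in a library labelled NNAT-positive (mouse 3), 4 counts in a library labelled NNAT-negative (mouse 4), and 6, 10 and 0 counts in the non-beta libraries, with 0 counts elsewhere. Pooled over libraries, Gad2 in non-beta cells was 2.10-fold the level of the fraction labelled NNAT-positive (95% interval 0.896 to 5.18, exact binomial) and 4.44-fold that of the fraction labelled NNAT-negative (1.43 to 18.3), and without the filter it was called in no comparison (edgeR, adjusted p from 0.399 to 1). The antisense gene Gad1os, whose exons share no base with those of Gad1, had 9, 3 and 6 counts in the fractions labelled NNAT-positive, labelled NNAT-negative and non-beta.

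**Figure D3:**
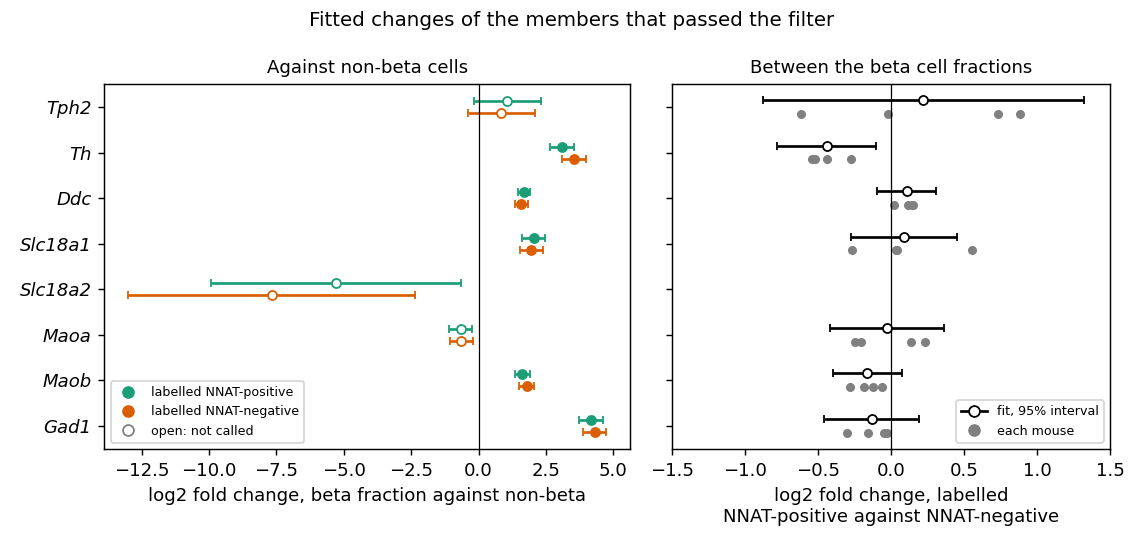
Fitted log2 fold changes with 95% intervals for the 8 genes that passed the filter, for each beta cell fraction against non-beta cells (left) and between the beta cell fractions (right, with grey points for each mouse and Slc18a2 left out because its beta cell libraries are at or near 0). Filled points are called at an adjusted p below 0.01: Th, Ddc, Slc18a1, Maob and Gad1 are filled on the left, and no gene is called on the right.

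Levels between genes were compared scaled to exon length as well as library size (RPKM). Exon length here is the sum over all annotated exons of a gene (7639 bases for Gad1, 2364 for Th), not the length of the transcript expressed. The order, and the size of ratios and shares per exon length, depend on this choice. Without it, mean levels in the fraction labelled NNAT-positive were 162 CPM for Gad1 and 44.7 CPM for Th. In the fraction labelled NNAT-positive the order was Ddc (133 ± 24.1 RPKM, SD, n = 4), Maob (96.3 ± 9.81), Gad1 (21.2 ± 2.88), Th (18.9 ± 4.12), Maoa (4.01 ± 0.887), Slc18a1 (3.43 ± 0.303) and Tph2 (0.669 ± 0.190), followed by Gad2, Tph1 and Slc18a2 below 0.05 RPKM in every library. Ddc and Maob overlapped in range, as did Gad1 and Th, and Maoa and Slc18a1. In the fraction labelled NNAT-negative Th (25.7 ± 5.59 RPKM, SD, n = 4) stood before Gad1 (23.1 ± 1.34), but these overlapped as well. In non-beta cells Maoa (6.77 ± 1.28 RPKM, SD, n = 3) took the third place, after Ddc (44.4 ± 10.2) and Maob (32.3 ± 5.27), which overlapped each other, and before Th (2.02 ± 0.539), Gad1 (1.15 ± 0.413) and Slc18a1 (0.876 ± 0.2502), of which neighbours overlapped. Tph2 (0.330 ± 0.0510 RPKM) stood apart from Slc18a1 above it and from Slc18a2 (0.142 ± 0.0772) below it. The last 3 places, Slc18a2, Tph1 and Gad2, overlapped from neighbour to neighbour.

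The level of each gene in non-beta cells was then expressed as a percentage of the mean of both beta cell fractions of the same mouse and set beside that of beta cell markers, since insulin reads were present in the non-beta libraries. Ins1 and Ins2 together stood at 3.38, 2.95 and 8.01% in mice 1 to 3, and the means of the 8 beta cell markers over the mice ran from 4.01% (Mafa) to 11.3% (Pdx1). Gad1 lay within that range at 4.04, 4.45 and 7.83%. Th was at 8.00, 7.88 and 15.05%, a mean of 10.3 ± 4.11% (SD, n = 3). Slc18a1 (20.1, 26.9 and 28.1%), Maob (24.6, 30.7 and 37.4%) and Ddc (27.5, 33.4 and 35.9%) were higher than every beta cell marker in each mouse, where the highest marker value was 12.8%. Tph2 was at 66.2, 50.2 and 38.9%, and Maoa exceeded the beta cell level at 141, 225 and 118%. Mouse 3, with the highest insulin percentage, had the highest percentages of Gad1, Th, Slc18a1, Maob and Ddc and the lowest of Tph2 and Maoa. The part of beta cells, or of their RNA, within the non-beta fraction in these values was not tested.

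**Figure D4:**
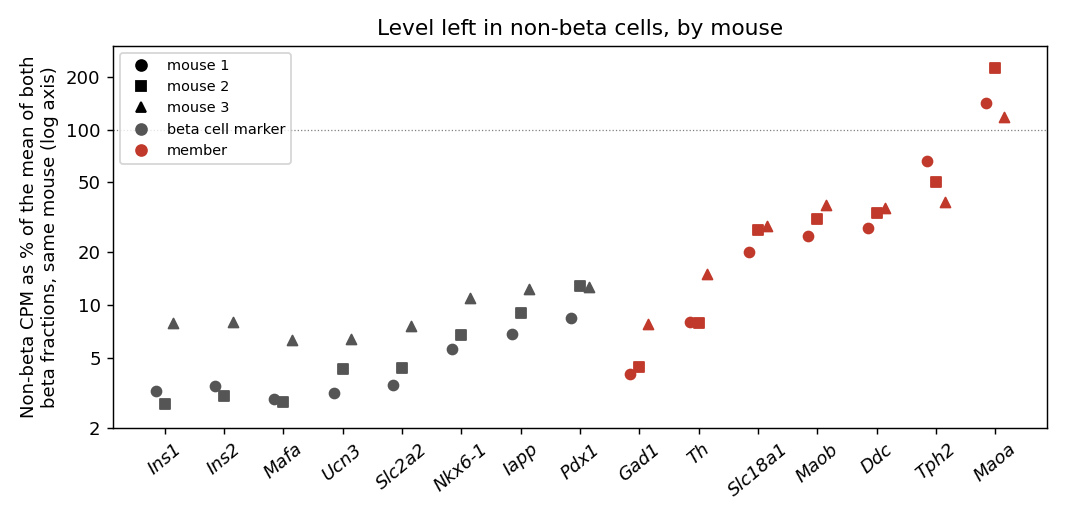
Non-beta level as a percentage of the mean of both beta cell fractions of the same mouse (log axis), with symbols for mice 1 to 3, for 8 beta cell markers (grey) and 7 genes of transmitter synthesis or breakdown (red). Gad1 lies among the markers, Slc18a1, Maob and Ddc lie between 20.1 and 37.4% and above every marker, and Maoa lies above 100%.

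Between the beta cell fractions, the question was whether cells sorted by the Nnat reporter differed in these genes. None of the 8 genes was called (edgeR, adjusted p from 0.725 to 1), and 1 of the 8, Th, had an unadjusted p below 0.05. Of all genes tested, 0.0517% were called higher and 0% lower in the fraction labelled NNAT-positive, and 839 were higher and 130 lower at an unadjusted p below 0.05. DESeq2 called 123 higher and 14 lower, with 0 of the 8 genes among them. All 4 mice had less Th in the fraction labelled NNAT-positive, by 0.28, 0.52, 0.54 and 0.44 on the log2 scale for mice 1 to 4, as fitted by -0.44 (SE 0.15, 95% interval -0.78 to -0.10, unadjusted p = 0.0163, adjusted p = 0.725). Its adjusted p ranged from 0.0728, in a fit of the beta cell libraries alone, to 1 over the alternatives. The groups overlapped, since mouse 4 had the highest Th in both fractions. Mouse 4 also had the highest Nnat and the lowest share of insulin reads in both.

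Small differences in a single direction were also seen in 3 other genes. In the fraction labelled NNAT-positive, Ddc was higher in 4 of 4 mice by 0.022 to 0.15 on the log2 scale (fit 0.11, 95% interval -0.10 to 0.31), Gad1 lower in 4 of 4 by 0.031 to 0.30 (fit -0.13, -0.46 to 0.19) and Maob lower in 4 of 4 by 0.063 to 0.28 (fit -0.16, -0.40 to 0.07). None of them passed the test. The share of all tested genes with a single direction in 4 of 4 mice was not determined. Nothing is therefore read from the number of such genes, Th included. Slc18a1 (0.09, -0.27 to 0.45), Maoa (-0.03, -0.42 to 0.36) and Tph2 (0.22, -0.88 to 1.32) varied in direction between mice. The intervals leave room for differences of up to 0.46 for Ddc, Gad1, Maob, Slc18a1 and Maoa and of over 1 for Tph2. Other endocrine RNA moved with the labels: the sum of 4 delta cell markers was 1402 to 2489 CPM in libraries labelled NNAT-positive and 543 to 1046 CPM in those labelled NNAT-negative, that of 6 alpha cell markers 2817 to 4076 and 1587 to 2486 CPM, and that of 2 PP cell markers 299 to 421 and 89.0 to 159 CPM. No marker of these lists was at 0 in either fraction, 1 of the 4 delta and both PP markers were called, and their part in the small differences was not tested.

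The neighbouring pathways were described with 91 genes in 9 lists, of which 50 passed the filter. In the fraction labelled NNAT-positive 24 were called against non-beta cells, 10 higher and 14 lower, where 15.8% of all tested genes were called higher and 19.1% lower, with a median log2 fold change of -0.84 over the 50 beside -0.06 over all genes. In the fraction labelled NNAT-negative 25 were called, 10 higher and 15 lower, where 15.6% of all tested genes were called higher and 21.3% lower, with a median of -1.07 beside -0.13. Genes without reads in beta cells (Slc6a2, Slc6a4, Htr1b, Adra1b and Adra1d) passed the filter through the non-beta libraries alone. They could only come out lower, so the numbers called lower and the medians are partly set by the filter. Nothing particular to these lists is read from such counts or medians. Between the beta cell fractions 0 were called (median 0.10).

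Tetrahydrobiopterin is the cofactor of all tryptophan and tyrosine hydroxylases. Of the 7 tested genes of its metabolism, 2 were called higher in both beta cell fractions and none lower. Over all tested genes, 15.8 and 15.6% were called higher and 19.1 and 21.3% lower in the fractions labelled NNAT-positive and NNAT-negative. These shares also stand beside the counts of the lists that follow, from which nothing is read. Gch1, the entry enzyme GTP cyclohydrolase, rose by 1.23 (SE 0.14) and 1.22 (SE 0.15) on the log2 scale from 78.5 CPM in non-beta cells. Qdpr, which regenerates the cofactor, rose by 0.81 (SE 0.10) and 0.71 (SE 0.10) to 167 and 155 CPM. Among enzymes beyond the shared steps, 1 of 5 was tested: Hdc, which makes histamine, was at 4.96 CPM in non-beta cells and fell by 1.95 (SE 0.48) in the fraction labelled NNAT-negative, a call lost without any of the 4 mice in turn (adjusted p from 0.0131 to 0.0440, edgeR), and differed by -1.75 (SE 0.49, adjusted p = 0.0136, edgeR) in that labelled NNAT-positive. Of 5 genes of monoamine breakdown, 1 rose and 3 fell in each fraction. Aldh2, an aldehyde dehydrogenase that acts after the monoamine oxidases, fell by 1.73 and 1.72 (SE 0.10 each). Aldh1a1 was at 36.9 CPM in non-beta cells and 0.183 and 0.181 CPM in the beta cell fractions, and the sulphotransferase Sult1a1 at 13.4, 0.0555 and 0.0208 CPM.

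Of 7 tested transporters of monoamines and their precursors, 1 rose and 2 fell in each fraction. Slc7a5, which carries large neutral amino acids including tryptophan and tyrosine, rose by 1.34 and 1.26 (SE 0.14 each). Slc16a10, an aromatic amino acid transporter, had the highest level of the list (453 CPM in non-beta cells, 473 and 446 CPM in the beta cell fractions) and was not called. Slc29a4, the plasma membrane monoamine transporter, fell by 1.25 and 1.77 (SE 0.17 each). The noradrenaline transporter Slc6a2 had 558 counts in non-beta cells and 0 in all beta cell libraries, and was at least 244-fold and 207-fold lower there with 3 counts over the group as the floor, a call lost without mouse 1 (adjusted p = 0.0735 and 0.0751, edgeR) and with DESeq2 (0.0352 and 0.0402).

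Of 7 tested genes of GABA handling, 4 were called higher and 2 lower in the fraction labelled NNAT-positive, and 4 higher and 1 lower in that labelled NNAT-negative, beside the shares of all genes given above. Abat, the GABA transaminase, rose by 1.55 and 1.44 (SE 0.13 each), and Glul, which makes glutamine from glutamate, rose by 0.98 and 1.10 (SE 0.10 each) to 566 and 616 CPM. Lrrc8a, a subunit of the volume-regulated anion channel, fell by 1.34 (SE 0.35) in the fraction labelled NNAT-positive, a call lost without mouse 1, 2 or 4, and differed by -1.17 (SE 0.35, adjusted p = 0.0178, edgeR) in that labelled NNAT-negative.

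Receptors were low in beta cells apart from a few. Of 14 serotonin receptor genes 1 passed the filter, Htr1b, with 277 counts in non-beta cells and 0 in all beta cell libraries, and it was not called (adjusted p = 0.0109 and 0.0112, edgeR). Of 7 tested dopamine and adrenergic receptors 1 rose and 3 fell in each fraction. Adra2a, the alpha-2A adrenoceptor known to restrain insulin secretion, rose by 3.44 (SE 0.11) and 3.34 (SE 0.11) from 19.5 CPM in non-beta cells to 196 and 183 CPM. Adra1a was at 2.17 CPM in non-beta cells and 0.0465 and 0.0274 CPM in beta cells. Adra1b, at 0 counts in all beta cell libraries and at least 140-fold lower in the fraction labelled NNAT-positive, was called there but not in the fraction labelled NNAT-negative, and Adrb1 was called in the latter (3.95 against 0.0415 CPM). The calls of Adra1a, Adra1b and Adrb1 were each lost when single mice were left out. Of 12 tested GABA receptor genes 1 rose and 3 fell in the fraction labelled NNAT-positive, and 1 rose and 4 fell in that labelled NNAT-negative. Gabbr2, a subunit of the GABA-B receptor, rose by 2.74 and 2.64 (SE 0.25 each) to 56.2 and 53.0 CPM. Gabrg1 fell from 5.65 CPM to 0.149 and 0.0615 CPM, a call lost in both fractions without mouse 2. Gabrp (at least 173-fold lower in the fraction labelled NNAT-positive) and Gabrg3 (at least 71.5-fold lower in that labelled NNAT-negative) were called in those fractions alone, and edgeR called neither between the beta cell fractions. Gabrp lost its call without mouse 1, 2 or 3, and Gabrg3 without any of the 4 mice in turn. Among relatives of the 10 genes, Csad, a decarboxylase of taurine synthesis, was at 32.1, 33.8 and 27.9 CPM and was not called.

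**Figure D5:**
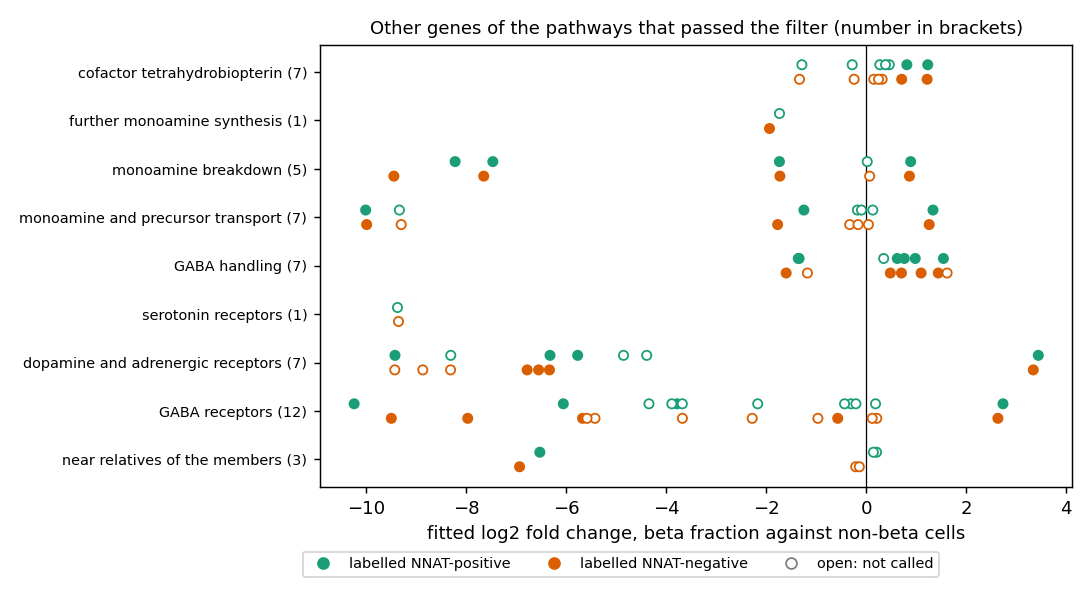
Fitted log2 fold change of each beta cell fraction against non-beta cells for the 50 neighbouring pathway genes that passed the filter, by list, with filled points for genes called at an adjusted p below 0.01. Adra2a, at 3.44 and 3.34, and Gabbr2, at 2.74 and 2.64, lie at the right end, and points below -9 belong to genes at or near 0 counts in beta cells, whose fitted size is no measured bound.

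Genes whose log2 CPM ran most like that of each gene were listed among 14038 genes with a mean of at least 1 CPM. Over all 11 libraries, which differ mainly as beta and non-beta cells, the closest were Rims3 (r = 0.998), B830017H08Rik (0.997) and Ero1lb (0.996) for Gad1, Coro2b (0.996), Kcnh1 (0.995) and Defb1 (0.994) for Ddc, and A530058N18Rik (0.995), Rtl5 (0.995) and Mns1 (0.992) for Th. For Slc18a1 they were Wfs1 (0.994), Uso1 (0.991) and Mia2 (0.990), for Maob Pacc1 (0.995), Iapp (0.995) and Zdhhc2 (0.994), for Maoa Tpt1-ps3 (0.9497), Tmem151a (0.936) and Pld3 (0.933), and for Tph2 Setd7 (0.919), Gm16861 (0.915) and Sgcd (0.913). Over the 8 beta cell libraries alone, which come in pairs from 4 mice, they were Btbd8 (0.969), Sms (0.960) and Cyth1 (0.9498) for Gad1, Ptp4a3 (0.990), Esyt1 (0.989) and Coro2b (0.979) for Ddc, and Gm45871 (0.951), Rtl5 (0.934) and Osbpl11 (0.932) for Th. In the same 8 libraries they were Ap3b1 (0.979), Mtmr6 (0.974) and Thsd4 (0.973) for Slc18a1, Aftph (0.969), Syt4 (0.959) and Hs3st6 (0.958) for Maob, Spg21 (0.979), B3galt5 (0.973) and Vdac2 (0.971) for Maoa, and Map2k3 (0.957), Carnmt1 (0.953) and Itgb4 (0.948) for Tph2. Coro2b for Ddc and Rtl5 for Th stood in both lists, but the 8 libraries are part of the 11, so the lists are not independent. The listed genes are the closest of 14038, which by itself favours high r values, and no chance level of r was determined.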

How the data were processed

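Polyadenylated RNA from sorted islet cells was sequenced as 75-base reads from a directional library kit. Per the labels and methods, the authors used STAR 2.7.1a with the mm10 build and deposited raw read counts per gene with GENCODE vM25, and used DESeq2 1.32.0 for their own tests. The strand setting of the counting is not given in the sources used here. All 11 libraries entered a single edgeR 4.0.16 quasi-likelihood fit in R 4.3.3 (fraction and mouse as terms, trimmed mean of M values, filterByExpr by fraction), with Benjamini-Hochberg adjustment over 17424 genes and calls at an adjusted p below 0.01. Libraries with the same replicate number were taken as fractions of a mouse. Deviations from fraction means correlated at 0.182, 0.199, 0.219 and 0.658 in the beta cell pairs of mice 1 to 4 (mean 0.314). Between beta and non-beta libraries of a number they correlated at 0.032 to 0.125. The mean of -0.103 in 12 beta cell pairs of different numbers is no separate contrast, since centring ties it to the same-number pairs. No pair of libraries among 55 was identical.

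Exon lengths and gene coordinates came from GENCODE vM21 (GRCm38), which matched 55141 of 55401 identifiers; 17409 tested genes had a length. Reads of near-identical copies or of antisense genes may be split by the counting in ways that were not tested. log2 CPM values used a prior count of 2. The 10 genes, the pathway and marker lists and the tests were chosen with earlier results of these data known. Every one of the 10 was named; from each pathway list the gene of the highest mean CPM and, per beta cell fraction, up to 2 called genes in each direction by size. Some genes that this rule selects are not reported here. Alternatives were DESeq2 1.42.0, its size factors in edgeR, library sizes without the 20 most abundant genes, no filter, no mouse term, other thresholds, each mouse left out and beta cell libraries alone. On simulated counts for the comparison of the beta cell fractions, edgeR recovered 69 of 100 genes changed by 2-fold and 92 of 100 changed by 4-fold. It called 0 of 16707 unchanged genes. DESeq2 recovered 71 and 91 and called 8 of the unchanged genes. The simulated counts held no differences between mice and only a shared trend of the spread, so these rates do not measure the power of the real comparison.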

Additional observations from a re-analysis of the deposited data

Results flagged for a closer look

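In 18 groups of 4 beta cell libraries examined for a library that stands apart from the others by Dixon's criterion, 4 groups had such a library. In each of the 4, a single library held all the reads of a rare gene, so that the gap divided by the range was 1 by construction. The rate of about 1 in 20 that chance gives holds for continuous values and not for counts near 0, so nothing is read from the number of such groups. These were Tph1 in the fraction labelled NNAT-positive (7 counts in mouse 3), Slc18a2 in the same fraction (3 counts in mouse 2), Gad2 in the same fraction (10 counts in mouse 3) and Gad2 in the fraction labelled NNAT-negative (4 counts in mouse 4). The other 3 libraries of each group were at 0 counts. Tph1 and Gad2 both had their reads in mouse 3 of the fraction labelled NNAT-positive.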

How the results depend on the processing

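Against non-beta cells, the calls of Ddc, Th, Slc18a1, Gad1 and Maob held under all 9 alternatives in both fractions. The number of the 10 genes called was 5 and 5, with 6 and 7 by DESeq2, 6 and 5 with its size factors in edgeR, without the 20 most abundant genes or without the filter, and 6 and 7 at an adjusted p below 0.05. Without the replicate block it was 5 and 6, the sixth being Slc18a2, which DESeq2 also called in the fraction labelled NNAT-negative (adjusted p = 0.00669 and 0.00582, range over alternatives 0.00582 to 0.149); the block changed no other call of the 10. Maoa was called in the fraction labelled NNAT-positive with the size factors of DESeq2 (-0.76, adjusted p = 0.00733), without the 20 most abundant genes (-0.75, 0.00826) and without the filter (-0.69, 0.00733). These scalings moved the median log2 fold change of all genes from -0.06 to as low as -0.16. Between the beta cell fractions 0 of the 10 were called under any alternative. There, leaving out each replicate in turn gave -0.012 to 0.56 for Tph2, -0.061 to 0.20 for Slc18a1 and -0.10 to 0.052 for Maoa, with the sign turned without replicate 2, 2 and 1; the cause was not tested. All-gene calls there were 9, against 1 without the block, 7 in the beta cell libraries alone, 30 without the filter, 137 by DESeq2 and 0 to 5 with a mouse left out, with 0 without mouse 3. Of the pathway genes, DESeq2 called 1 between the beta cell fractions, Gabrp, which is at 0 counts in the fraction labelled NNAT-positive; leaving out mice gave 19 to 21 and 18 to 22 calls against non-beta cells, and DESeq2 28 and 29. Depth limits Tph1, Slc18a2 and Gad2, which had 0 counts in most beta cell libraries.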
